A study of Mus musculus with 7 samples.

Results

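The genes described here encode the proteins of the mitochondrial ribosome. They were taken by symbol, as every listed gene named Mrpl or Mrps followed by a number and at most 1 letter, which gave 77 of the 46959 features in the deposited table. Of these, 48 are Mrpl genes, named for the large subunit, and 29 are Mrps genes, named for the small subunit. RNA was measured by total RNA sequencing after ribosomal RNA depletion in splenic B cells of the mouse. Of the 7 libraries, 4 are labelled cKO MED1, a conditional knockout of Med1, a subunit of the Mediator complex that links transcription factors to RNA polymerase II. The other 3 are labelled WT. Cells of both genotypes had been activated in culture for 4 days with LPS at 1 µg/mL and IL-4 at 20 ng/mL. The Cre driver, the floxed allele, the strain, the age of the mice and whether each library came from its own mouse are not stated in the sources used here. The p-values therefore measure only the spread between these libraries. In bulk RNA, fewer cells of a type and less RNA per cell cannot be told apart.

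Mitochondria keep a small genome that encodes a few subunits of the respiratory chain, and they translate those messages on a ribosome of their own. Both rRNAs of that ribosome come from mitochondrial DNA, whereas all of its proteins are encoded in the nucleus, made in the cytosol and imported. Some of these proteins have bacterial counterparts and others are found only in mitochondria. Activated B cells grow, divide and raise their respiration, which calls on mitochondrial translation.

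Recovered reads ranged between 31937372 and 49603193 in the cKO MED1 libraries and between 54736580 and 61149274 in the WT libraries. Levels are given as normalised reads, which are reads scaled to a common library of 48019763 reads. Med1 itself had 2585, 2172, 2249 and 2436 normalised reads in the 4 cKO MED1 libraries and 4755, 4173 and 4210.1 in the 3 WT libraries. It averaged 2361 ± 186 normalised reads in cKO MED1 cells and 4379.5 ± 326 in WT cells (SD, n = 4 and n = 3), so that 53.9% of the WT level remained (log2 fold change -0.89, SE 0.09, adjusted p = 0.000174), and whether the counted reads cover the deleted part was not tested. The summed level of 10 B cell markers was 137144 to 157950.4 normalised reads in cKO MED1 libraries and 193552 to 211450.1 in WT libraries, and all 10 were detected. Dendritic cell markers ran from 4033 to 5195 in cKO MED1 libraries and from 2610.1 to 3536 in WT libraries, with all 8 detected. Neutrophil markers ran from 28.5 to 123 in cKO MED1 libraries and from 8.26 to 21.2 in WT libraries, where S100a9 was at 0. The ranges of the T cell, NK cell, macrophage, erythroid and stromal lists overlapped between the groups. By Y-linked reads, cKO MED1 replicates 1, 2 and 4 were female, whereas cKO MED1 replicate 3 and all 3 WT libraries were male. The mean log2 level of 20 neuronal and muscle genes chosen as silent in B cells, relative to their level in WT, was 0.43, 0.85, 1.73 and 2.52 in cKO MED1 replicates 1 to 4, against -0.69, 0.42 and 0.27 in WT replicates 1 to 3. Their summed level overlapped between the groups, at 2003 to 3873 normalised reads in cKO MED1 libraries and 2416 to 3466 in WT libraries. The list was thus not without reads. The part of cell makeup, sex, depth or RNA quality in what follows was not tested.

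Messages of many mitochondrial ribosomal proteins, of both subunits, were modestly lower in cKO MED1 cells. The largest fall was that of Mrps7, which kept 62.8% of its WT level, and no member was called higher. Of 76 members that passed the filter on low reads, 31 were lower and 0 were higher in cKO MED1 cells in the limma fit over all 18062 genes tested, at an adjusted p below 0.05. At an unadjusted p below 0.05, 47 were lower and 0 were higher. edgeR's quasi-likelihood test called 33 lower and 0 higher (14.8% of all genes lower), and DESeq2 called 38 lower and 0 higher (16.8% of all genes lower). In the limma fit, 28% of all genes tested were called, 14.6% lower and 13.4% higher. Of all calls 47.8% were higher, which became 31.8% with reads scaled by their total and 37.3% with the authors' size factors, where 56 and 46 members were lower and 0 higher. Low-level genes tended to be higher in cKO MED1 cells, so the 7424 genes within the range of levels of the members, the members included, are a closer background. Of these, 22.8% were lower and 8.34% were higher. The median log2 fold change was -0.31 over the members (quartiles -0.39 and -0.17), -0.11 over the genes in that range of levels and 0.04 over all genes tested. The fold change was below 0 in 69 members and ran between -0.67 and 0.24. The groups did not overlap in 39 members, which are 51.3% of the 76, against 39.1% of all genes tested and 41.7% of genes in the same range of levels. With sex or 1 surrogate variable in the fit, 0 members were called lower (unadjusted p below 0.05 for 11 and 15), where the calls over all genes also dropped to 228 and 241. The count was 8 without WT replicate 1, 17 without cKO MED1 replicate 4 and 18 without cKO MED1 replicates 3 and 4, and all 8, 17 and 18 were among the 31. The share lower over all genes also dropped in these settings, to 5.25%, 8.90% and 7.34%.

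**Figure D1:**
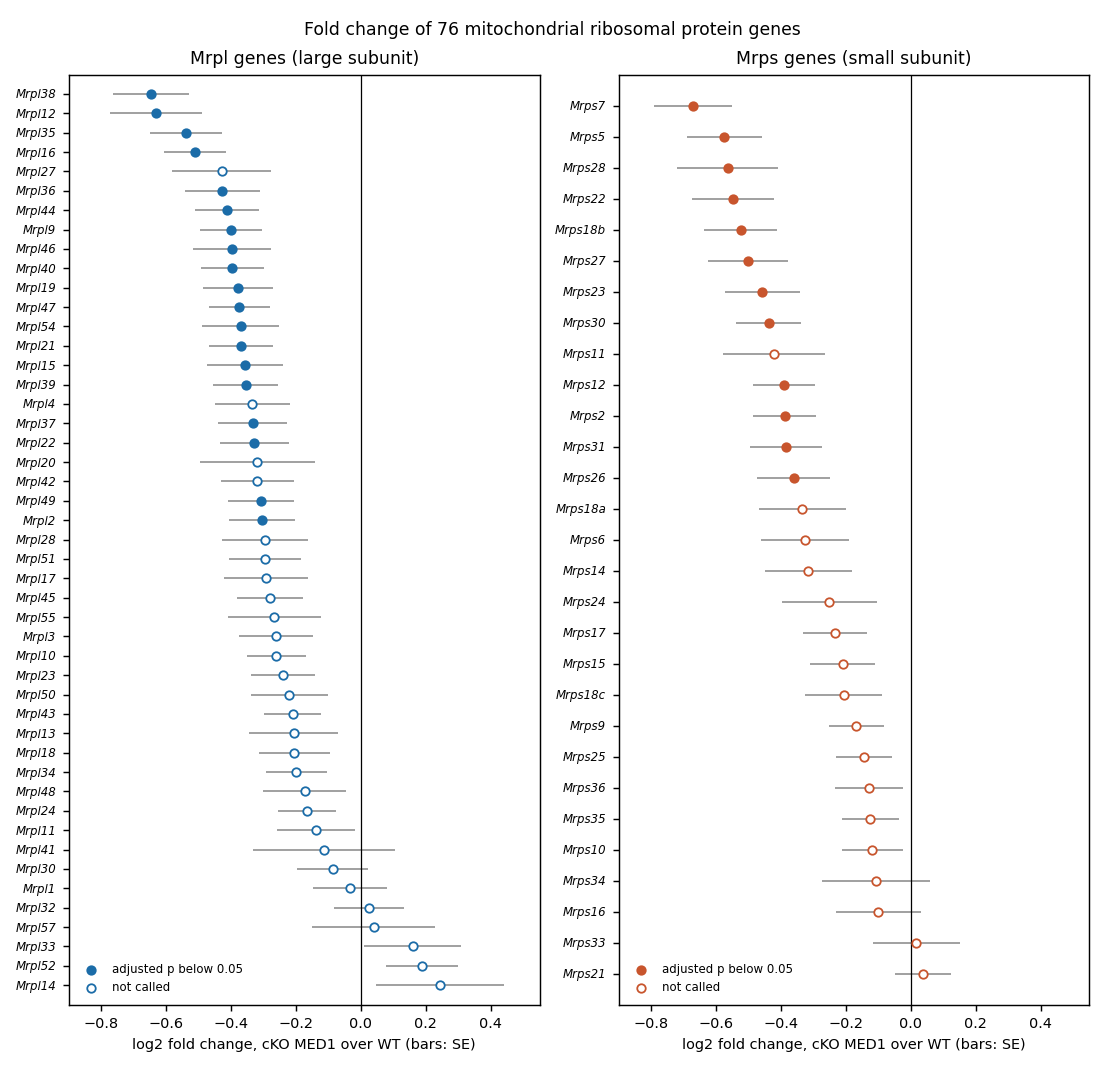
Log2 fold change (cKO MED1 over WT) of the 76 tested members, with the standard error from limma as bars, Mrpl genes left and Mrps genes right. Filled points passed an adjusted p of 0.05. The 31 filled points all lie below 0, and the 7 points above 0 are open.

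The members did not move by the same amount in every cKO MED1 library. The mean log2 level of the 76 members, with the WT average set to 0, was -0.41, -0.18, -0.14 and -0.40 in cKO MED1 replicates 1 to 4, against 0.11, 0.02 and -0.13 in WT replicates 1 to 3. cKO MED1 replicates 1 and 4 were far below every WT library, whereas cKO MED1 replicates 2 and 3 lay just below the lowest of them, WT replicate 3. Taken library by library, 74, 51, 43 and 65 of the 76 members were below all 3 WT libraries in cKO MED1 replicates 1 to 4, and 0, 7, 10 and 3 were above all 3. Among the 7424 genes in the same range of levels, 47.5%, 45.3%, 55.4% and 57.4% were below all 3 WT libraries, and 29.96%, 30.2%, 20.9% and 25.9% were above all 3. The 43 members in cKO MED1 replicate 3, the only male cKO MED1 library, are 56.6% of the members, close to the 55.4% of that background, and the 10 above all 3 WT libraries are 13.2% of the members, against 20.9%. Female libraries were all cKO MED1, so the groups cannot be compared within that sex.

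Summed over all 77 members, the level was 65528, 76661, 78416 and 65755 in cKO MED1 replicates 1 to 4, against 93161, 87876 and 79135 in WT replicates 1 to 3 (normalised reads). These sums do not overlap, although cKO MED1 replicate 3 and WT replicate 3 are close. The share of all reads taken by both mitochondrial rRNAs was 23.2, 29.3, 35.3 and 38.4 in cKO MED1 replicates 1 to 4, against 19.1, 24.3 and 21.4 in WT replicates 1 to 3 (percent), so that cKO MED1 replicates 2 to 4 were above every WT library. Computed without those rRNAs, the members took 0.186, 0.224, 0.221 and 0.183 in cKO MED1 replicates 1 to 4, against 0.274, 0.257 and 0.230 in WT replicates 1 to 3 (percent of reads), again without overlap.

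Genes of both subunits were lower. Of 47 tested Mrpl genes, 19 were lower (40.4%, median log2 fold change -0.30, 23 without overlap). Of 29 Mrps genes, 12 were lower (41.4%, median -0.33, 16 without overlap). Among genes in the same range of levels, 22.8% were lower, with a median of -0.11, and 41.7% showed no overlap between the groups. The mean log2 level of the Mrpl genes, on the same scale, was -0.42, -0.16, -0.12 and -0.38 in cKO MED1 replicates 1 to 4, against 0.10, 0.03 and -0.13 in WT replicates 1 to 3. That of the Mrps genes was -0.41, -0.21, -0.18 and -0.44 in cKO MED1 replicates 1 to 4, against 0.12, 0.01 and -0.13 in WT replicates 1 to 3. For the Mrpl genes cKO MED1 replicate 3 lay above WT replicate 3, whereas for the Mrps genes all cKO MED1 libraries were below all WT libraries. The difference between the subunits was not tested. The summed reads of the Mrpl genes were 1.77, 1.88, 1.89 and 1.88 times those of the Mrps genes in cKO MED1 replicates 1 to 4, against 1.77, 1.83 and 1.79 times in WT replicates 1 to 3, so the ratios of the groups overlap.

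**Figure D2:**
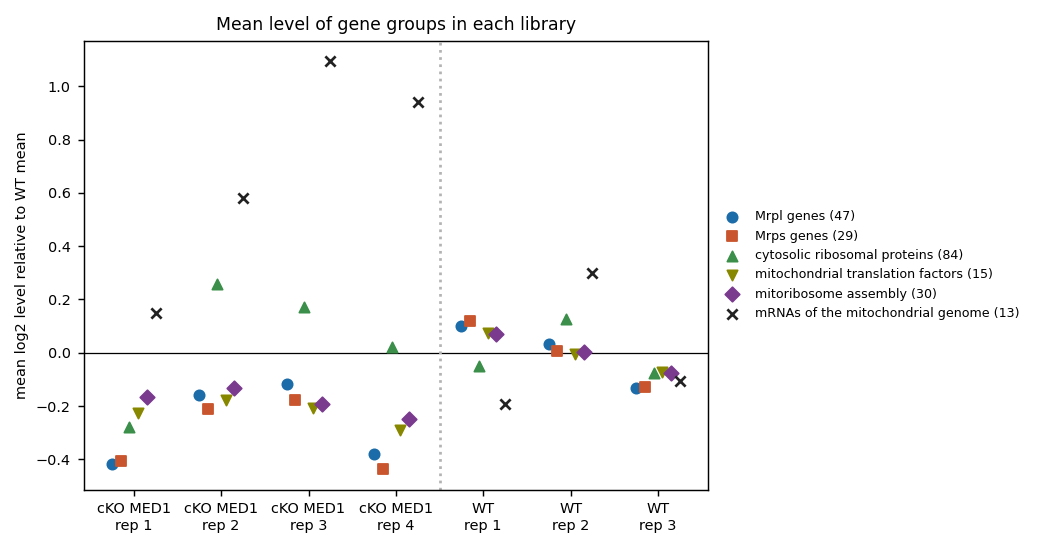
Mean log2 level per library, relative to the WT mean, of Mrpl genes, Mrps genes and 4 other gene groups (numbers of genes in the legend), with cKO MED1 libraries left of WT libraries. In cKO MED1 libraries the Mrpl and Mrps points lie between -0.44 and -0.12, whereas the cytosolic ribosomal protein points range between -0.28 and 0.26.

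Some names differ from the place of the protein. Structures put the products of Mrps18a and Mrps30 in the large subunit, and the product of Mrps36 belongs to the oxoglutarate dehydrogenase complex and not to the ribosome. By place, 20 of 49 large subunit genes (40.8%) and 11 of 26 small subunit genes (42.3%) were lower. Mrps30 (log2 fold change -0.44, adjusted p = 0.0115) was among them, and Mrps18a was not (-0.33, adjusted p = 0.0796). Mrps36 had 609.8, 732, 682 and 611 normalised reads in the 4 cKO MED1 libraries and 753, 757 and 651 in the 3 WT libraries, groups that overlap (log2 fold change -0.13, SE 0.10, adjusted p = 0.356). Of members with a bacterial counterpart, 16 of 46 were lower (34.8%, median -0.29). Of members found only in mitochondria, 15 of 29 were lower (51.7%, median -0.33). The share to set beside these origins and the split by place is 22.8% lower, among genes in the same range of levels. The difference between these origins was not tested.

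Promoters of many mitochondrial genes hold sites of NRF1 and of ETS factors such as GABP, so the sequences before the start sites were read from RefSeq (GRCm38.p6). They were matched by symbol for 68 of 77 members. The following are the 250 bases before the start of Mrps7, Mrpl12 and Mrps22, which were called lower, and of Mrps21, which was not, written 5′ to 3′ on the strand of the gene. Capitals mark matches to NRF1 or ETS letters. The windows are chr11:115603890-115604139, plus strand, chr11:120484387-120484636, plus strand, chr9:98601680-98601929, minus strand and chr3:95871515-95871764, minus strand. For Mrps7, Mrpl12 and Mrps21 the RefSeq start lies within the span that GENCODE gives the gene.
Mrps7: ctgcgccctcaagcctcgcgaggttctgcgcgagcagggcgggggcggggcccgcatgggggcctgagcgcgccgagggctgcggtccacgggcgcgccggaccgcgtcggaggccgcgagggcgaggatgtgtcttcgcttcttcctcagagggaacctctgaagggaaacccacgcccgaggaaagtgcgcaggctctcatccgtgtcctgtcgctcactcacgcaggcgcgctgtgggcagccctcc
Mrpl12: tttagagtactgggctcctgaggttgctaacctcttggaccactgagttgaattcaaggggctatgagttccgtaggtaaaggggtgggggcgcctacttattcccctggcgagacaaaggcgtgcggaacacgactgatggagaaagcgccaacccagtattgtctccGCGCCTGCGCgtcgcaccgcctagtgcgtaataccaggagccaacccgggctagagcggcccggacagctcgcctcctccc
Mrps22: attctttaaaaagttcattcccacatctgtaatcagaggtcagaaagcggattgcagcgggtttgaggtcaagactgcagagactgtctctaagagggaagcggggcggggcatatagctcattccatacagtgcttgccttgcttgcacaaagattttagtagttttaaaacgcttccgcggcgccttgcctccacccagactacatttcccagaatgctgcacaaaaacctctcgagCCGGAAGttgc
Mrps21: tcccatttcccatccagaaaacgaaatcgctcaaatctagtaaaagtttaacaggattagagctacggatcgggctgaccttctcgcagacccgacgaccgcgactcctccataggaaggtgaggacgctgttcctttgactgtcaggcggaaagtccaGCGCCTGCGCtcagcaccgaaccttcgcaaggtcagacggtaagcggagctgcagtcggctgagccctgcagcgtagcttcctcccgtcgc

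The NRF1 letters lie 81 to 72 bases before the start of Mrpl12 and 91 to 82 bases before the start of Mrps21, and the ETS letters 11 to 5 bases before that of Mrps22. Mrps7 has neither in its window. Mrpl12, which was called lower, and Mrps21, which was not, hold the same NRF1 letters. The printed promoters were picked as examples, and a relation of these letters to the calls was not tested. Both strands were searched from 250 bases before to 50 bases after each start, and none of the 6 motifs contains another. NRF1 letters (GCGC, any base, then TGCGC) were in 19.1% of member promoters, in 12.6% of those of genes in the same range of levels and in 4.78% of all 27025 promoters. ETS letters (CCGGAAG) were in 35.3%, 23.1% and 9.12% of the same sets. YY1 letters (AAGATG directly followed by GCGGC) were in 7.35%, 2.23% and 0.699%. The GC box GGGCGG was in 34 of 68 member promoters, in 66.6% of those in the range of levels and in 35.9% of all, the E-box CACGTG was in 7.35%, 11.0% and 7.24%, and CCAAT was in 39.7%, 39.4% and 37.9%. Among the members, the NRF1 letters were in 5 of 26 promoters of genes called lower (19.2%) and in 8 of 41 of genes not called (19.5%). The ETS letters were in 8 of 26 (30.8%) and in 15 of 41 (36.6%). These shares are descriptions of the letters in these windows.

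Among the genes of the small subunit, Mrps7 changed most at the RNA level. It encodes a protein with a bacterial counterpart that binds the rRNA in the head of the subunit (ENSMUSG00000046756.10, chr11:115603925-115608036 in GRCm38). Mrps7 had 1940.4, 2202, 2314 and 1740.4 normalised reads in cKO MED1 replicates 1 to 4, against 3631, 3356 and 2803 in WT replicates 1 to 3. The highest cKO MED1 library was below the lowest WT library. Its mean was 2049 ± 259 normalised reads in cKO MED1 cells and 3264 ± 422 in WT cells (SD, n = 4 and n = 3), or 62.8% of WT (log2 fold change -0.67, SE 0.12, adjusted p = 0.00402). Mrps7 was also one of the most abundant members per length, at 989 normalised reads per kb of exon in cKO MED1 cells and 1575 in WT cells. Of its exon bases, 11.9% are shared with other annotated genes. Mrps5 (chr2:127587222-127606829), another protein with a bacterial counterpart, had 867, 725, 763 and 719 normalised reads in cKO MED1 replicates 1 to 4, against 1358, 1077 and 1018 in WT replicates 1 to 3. All cKO MED1 libraries of Mrps5 were below all WT libraries (66.8% of WT, log2 fold change -0.57, adjusted p = 0.00704). Mrps28 (chr3:8802146-8923918) had 359, 427, 499 and 326 normalised reads in cKO MED1 replicates 1 to 4, against 695, 582 and 504 in WT replicates 1 to 3. The groups of Mrps28 did not overlap, but cKO MED1 replicate 3 came within a few reads of WT replicate 3 (log2 fold change -0.56, adjusted p = 0.024).

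The other small subunit genes with the smallest adjusted p spanned both origins. Mrps22 (chr9:98588730-98601660), found only in mitochondria, had 509, 554, 619 and 499.6 normalised reads in cKO MED1 replicates 1 to 4, against 913, 839 and 658 in WT replicates 1 to 3. It thus stood at 67.9% of WT without overlap (log2 fold change -0.55, adjusted p = 0.0122). Mrps27 (chr13:99344786-99415562), a protein with pentatricopeptide repeats, stood at 70.7% of WT (-0.50, adjusted p = 0.0155), and 24.2% of its exon bases are shared with another annotated gene. Mrps23 (chr11:88204388-88211507) stood at 73.1% of WT (-0.46, adjusted p = 0.0167). Mrps12 (chr7:28739641-28741820), whose protein lines the decoding site, had 446, 466, 494 and 430.1 normalised reads in the 4 cKO MED1 libraries and 627, 597 and 582 in the 3 WT libraries. These values show little spread within groups, at 76.3% of WT (-0.39, adjusted p = 0.0147). Mrps2 (chr2:28468066-28471178) stood at 76.3% of WT (-0.39, adjusted p = 0.0165). All of these fell without overlap between the groups.

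Mrps18 exists as 3 genes, of which only Mrps18b was called. Mrps18b (chr17:35910379-35916389) had 534, 619.9, 687 and 573 normalised reads in cKO MED1 replicates 1 to 4, against 967, 829.9 and 806 in WT replicates 1 to 3. The groups were apart, at 69.6% of WT (log2 fold change -0.52, SE 0.11, adjusted p = 0.00877), and 30.5% of its exon bases are shared with another annotated gene. Mrps18a (chr17:46110986-46128910) had 839, 881, 917 and 609 normalised reads in cKO MED1 replicates 1 to 4, against 1087, 984 and 966 in WT replicates 1 to 3. Its groups did not overlap either, with cKO MED1 replicate 4 well below the other cKO MED1 libraries (log2 fold change -0.33, SE 0.13). Mrps18c (chr5:100798627-100804471), the copy that takes the place of the bacterial protein, averaged 599 ± 80.3 normalised reads in cKO MED1 cells and 688 ± 45.4 in WT cells (SD, n = 4 and n = 3), with overlap (log2 fold change -0.21, SE 0.12, adjusted p = 0.192). The difference between the 3 genes was not tested.

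**Figure D3:**
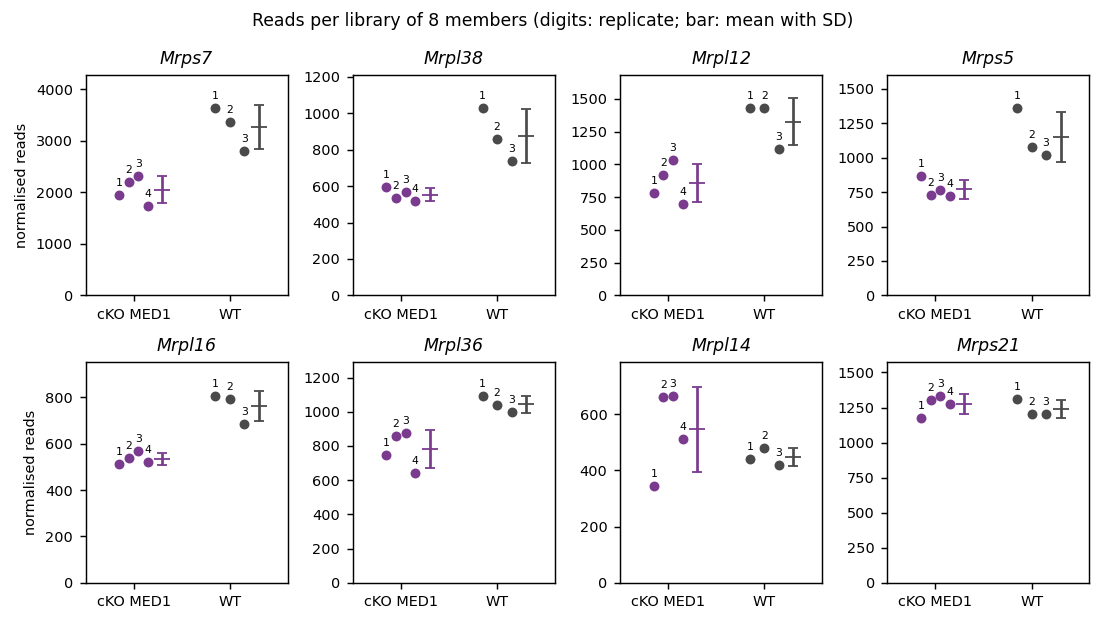
Normalised reads of 8 members in each library, cKO MED1 left of WT, with the replicate number over each point and the mean with SD as a bar; every axis starts at 0. Mrps7, Mrpl38, Mrpl12, Mrps5, Mrpl16 and Mrpl36 show no overlap between groups, whereas Mrpl14 and Mrps21 do.

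Of the large subunit genes, Mrpl38 and Mrpl12 changed most. Mrpl38 (ENSMUSG00000020775.13, chr11:116131817-116138868) encodes a protein of the central protuberance that is found only in mitochondria. It had 594, 535, 568 and 518 normalised reads in cKO MED1 replicates 1 to 4, against 1027, 860.1 and 736 in WT replicates 1 to 3. The cKO MED1 libraries of Mrpl38 lay close together and below all WT libraries, whose spread was wider. Its mean was 554 ± 33.7 normalised reads in cKO MED1 cells and 874 ± 146 in WT cells (SD, n = 4 and n = 3), or 63.3% of WT (log2 fold change -0.65, SE 0.12, adjusted p = 0.00432). Mrpl40 (chr16:18872018-18876862), also of the central protuberance, stood at 76.2% of WT (-0.40, adjusted p = 0.0159).

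Mrpl12 (ENSMUSG00000039640.7, chr11:120484613-120489065), with the NRF1 letters in its promoter, encodes the protein of the stalk that recruits translation factors, and its product has also been described as a partner of the mitochondrial RNA polymerase. It had 785, 921, 1031 and 697 normalised reads in cKO MED1 replicates 1 to 4, against 1427, 1429 and 1117 in WT replicates 1 to 3. cKO MED1 replicate 3 was the closest to the WT libraries, yet below WT replicate 3. The mean was 859 ± 147 normalised reads in cKO MED1 cells and 1324 ± 179.6 in WT cells (SD, n = 4 and n = 3), or 64.8% of WT (log2 fold change -0.63, SE 0.14, adjusted p = 0.0104). Mrpl10 (chr11:97041560-97049213), which anchors that stalk to the ribosome, had 1347, 1391, 1380.2 and 1206 normalised reads in cKO MED1 replicates 1 to 4, against 1733, 1559 and 1496 in WT replicates 1 to 3. Its groups did not overlap, but it missed the threshold (log2 fold change -0.26, adjusted p = 0.0515). Mrpl54 (chr10:81264713-81266934) fell to 77.9% of WT (-0.37, adjusted p = 0.0402).

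The other large subunit genes with the smallest adjusted p have bacterial counterparts for the most part. Mrpl16 (chr19:11770391-11774960), which has a bacterial counterpart beside the tRNA sites, had 511, 536, 569 and 519.8 normalised reads in cKO MED1 replicates 1 to 4, against 808, 794 and 687 in WT replicates 1 to 3. The cKO MED1 values were even, at 70.0% of WT (log2 fold change -0.51, SE 0.10, adjusted p = 0.00522). Mrpl35 (chr6:71812997-71826969) had 659.9, 726, 759.9 and 602 normalised reads in cKO MED1 replicates 1 to 4, against 1117, 992 and 889 in WT replicates 1 to 3. No cKO MED1 library reached the lowest WT library of Mrpl35 (68.8% of WT, log2 fold change -0.54, SE 0.11, adjusted p = 0.00801). Mrpl44 (chr1:79776018-79781445), which has a fold of the ribonuclease III type, stood at 74.8% of WT (-0.41, adjusted p = 0.014), Mrpl9 (chr3:94443318-94451130) at 75.8% (-0.40, 0.0134) and Mrpl21 (chr19:3282901-3292837) at 77.3% (-0.37, 0.0206). Mrpl47 (chr3:32725397-32737605), near the exit of the peptide tunnel, stood at 77.1% (-0.37, 0.0177), with 24.2% of its exon bases shared. Mrps30 (chr13:118378381-118387252) had 1066, 1046, 1093 and 932 normalised reads in cKO MED1 replicates 1 to 4, against 1574, 1364 and 1276 in WT replicates 1 to 3. It stood at 73.6% of WT without overlap.

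Calls differed among members of the large subunit with short coding sequences. Mrpl36 (chr13:73328513-73332178), with a coding length of 306 bases, had 749, 859, 877 and 642 normalised reads in cKO MED1 replicates 1 to 4, against 1095, 1042 and 996 in WT replicates 1 to 3. It was called lower and showed no overlap (74.9% of WT, log2 fold change -0.43, SE 0.12, adjusted p = 0.022). Mrpl27 (chr11:94653767-94660089) had the same fold change to 2 decimals (-0.43, SE 0.15) and missed the threshold (adjusted p = 0.0539), with 417, 522, 566 and 364 normalised reads in the 4 cKO MED1 libraries and 695, 621 and 553 in the 3 WT libraries. In Mrpl27, cKO MED1 replicate 3 lay above WT replicate 3. Mrpl34 (chr8:71464959-71465747) had 507, 533, 504 and 456 normalised reads in cKO MED1 replicates 1 to 4, against 576, 568 and 577 in WT replicates 1 to 3. The WT libraries of Mrpl34 were nearly equal and all above the cKO MED1 libraries, but the difference was small (-0.20, adjusted p = 0.123). Mrpl28 (coding length 771 bases; -0.30, adjusted p = 0.107) and Mrpl18 (-0.21, adjusted p = 0.169), named for their high level per kb of exon and not for length, overlapped between groups.

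For 7 members the fold change was above 0, and none passed the threshold. Mrpl14 (chr17:45686322-45698495), whose protein faces the small subunit, had 346, 662, 666 and 512 normalised reads in cKO MED1 replicates 1 to 4, against 442, 481 and 419 in WT replicates 1 to 3. cKO MED1 replicate 1 was below every WT library and the other 3 cKO MED1 libraries were above every WT library (log2 fold change 0.24, SE 0.20, adjusted p = 0.359). Without cKO MED1 replicate 1, Mrpl14 was the 1 member called higher. Exons of Mrpl14 overlap another annotated gene. Mrpl52 (0.19, adjusted p = 0.213) and Mrpl33 (0.16, adjusted p = 0.429) overlapped between groups, and both had a fold change below 0 when reads were scaled by their total (-0.05 and -0.08). Mrpl32 (0.02), Mrpl57 (0.04), Mrps33 (0.02) and Mrps21 (0.04) were near 0, and their sign turned with total reads (-0.22, -0.20, -0.22 and -0.20) and with the authors' size factors (-0.11, -0.09, -0.12 and -0.10).

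Mrps21 (ENSMUSG00000054312.6, chr3:95862634-95871519), with the same NRF1 letters as Mrpl12, is the shortest member by coding length (261 bases) and the most abundant per length. It had 1172, 1306, 1335 and 1276 normalised reads in cKO MED1 replicates 1 to 4, against 1312, 1203 and 1203 in WT replicates 1 to 3. The groups overlap and the difference was within the spread (log2 fold change 0.04, SE 0.09, adjusted p = 0.762). Per kb of exon it had 1722 normalised reads in cKO MED1 cells and 1677 in WT cells. Mrps15 (chr4:126046925-126055532) had 1931, 1862, 1654 and 1534 normalised reads in cKO MED1 replicates 1 to 4, against 2168, 1976 and 1899 in WT replicates 1 to 3, with overlap (-0.21, adjusted p = 0.129).

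Mrpl53 (ENSMUSG00000030037.9, chr6:83109040-83109939) was the member left out by the filter. Its normalised reads were 6.78, 8.77, 0 and 1.83 in cKO MED1 replicates 1 to 4, against 2.07, 0 and 1.597 in WT replicates 1 to 3. Of its exon bases, 88.0% lie in an annotated gene on the same strand, Gm42688, so its level is uncertain. Exons of 32 members overlap another annotated gene, and no source used here says whether counting was by strand. Of the 31 tested members with such overlap 14 were lower (45.2%), and of the 45 without it 17 were lower (37.8%). Their medians were -0.33 and -0.30. Among all genes in the same range of levels 22.8% were lower.

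Coding length went with the size of the fall. Of the 25 shortest members (261 to 480 bases) 3 were lower, of the 26 in the middle (498 to 756 bases) 12 were lower, and of the 25 longest (762 to 1326 bases) 16 were lower. The median log2 fold changes were -0.21, -0.32 and -0.36 from the shortest to the longest. Protein-coding genes in the same range of levels were split at the same lengths, into up to 480 bases, the lengths between, and 762 bases or more. Of these, 16.8%, 22.8% and 24.3% were lower, with medians of -0.06, -0.14 and -0.11. The last set has no upper limit, so it also holds genes longer than any member. Across the 76 members, which share all 7 libraries and are not independent replicates, log2 coding length and log2 fold change had a Pearson r of -0.46 and a Spearman rho of -0.43. Across 6503 protein-coding genes in the same range of levels, but of any coding length, these were 0.05 and 0.09. The relation over the coding lengths of the members alone was not computed for those genes. Taken library by library against the WT mean, r was 0.02, -0.51, -0.58 and -0.40 in cKO MED1 replicates 1 to 4, and 0.37, -0.16 and -0.21 in WT replicates 1 to 3. In cKO MED1 replicate 1, r was thus near 0. In that library the 25 shortest members averaged -0.41 and the 25 longest -0.38, whereas in cKO MED1 replicate 3 they averaged 0.03 and -0.28.

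**Figure D4:**
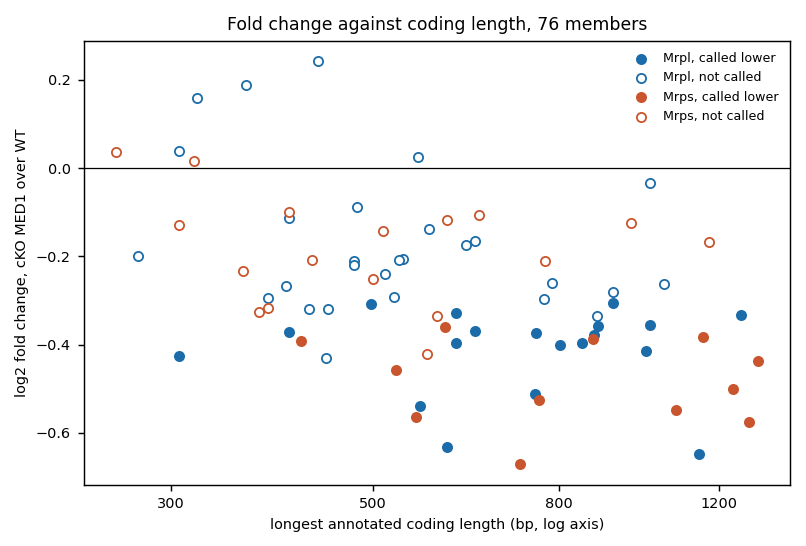
Log2 fold change (cKO MED1 over WT) of each of the 76 tested members against the longest annotated coding length in bases, on a log axis, with Mrpl genes in blue and Mrps genes in orange. Filled points were called lower, 3 among the 25 shortest members and 16 among the 25 longest.

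Many members share a promoter region with a gene on the other strand. A protein-coding gene that started within 1000 bases on the opposite strand and ran the other way was found for 33 of 76 tested members (43.4%), against 20.4% of 6503 protein-coding genes in the same range of levels and 15.3% of all 13500 tested. Of these 33 members 17 were lower, and of the other 43 members 14 were lower. Of their 27 tested partners outside the family, 7 were lower and 3 higher (median -0.11). Over all genes in the range of levels of the members, 22.8% were lower, with a median of -0.11. Partners were matched by symbol, so the 27 leave out Twnk, the partner of Mrpl43. It is listed under its other symbol Peo1 and was lower (-0.33, adjusted p = 0.0410). Mrps12 (-0.39) and Sars2 (-0.65, adjusted p = 0.0110), the mitochondrial seryl-tRNA synthetase, both fell. Mrpl40 (-0.40) and Hira (-0.47, adjusted p = 0.0177), a histone chaperone, did too, as did Mrps27 (-0.50) and Ptcd2 (-0.28, adjusted p = 0.0383). Mrpl46 (-0.40, adjusted p = 0.0325) and Mrps11 (-0.42, adjusted p = 0.0626) start 412 bases from each other and are both members. Mrpl44 (-0.41) and Wdfy1 (1.00, adjusted p = 0.000334) went in opposite directions, as did Mrps7 (-0.67) and Gga3 (0.26, adjusted p = 0.0466). Mrpl57 (0.04) and Mrpl30 (-0.09) were not called, whereas their partners Ska3 (-0.45, adjusted p = 0.0161) and Mitd1 (-0.51, adjusted p = 0.00782) fell. Beside Mrpl14 (0.24), Tmem63b rose (0.51, adjusted p = 0.0134). These partners were named after their values were seen.

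**Figure D5:**
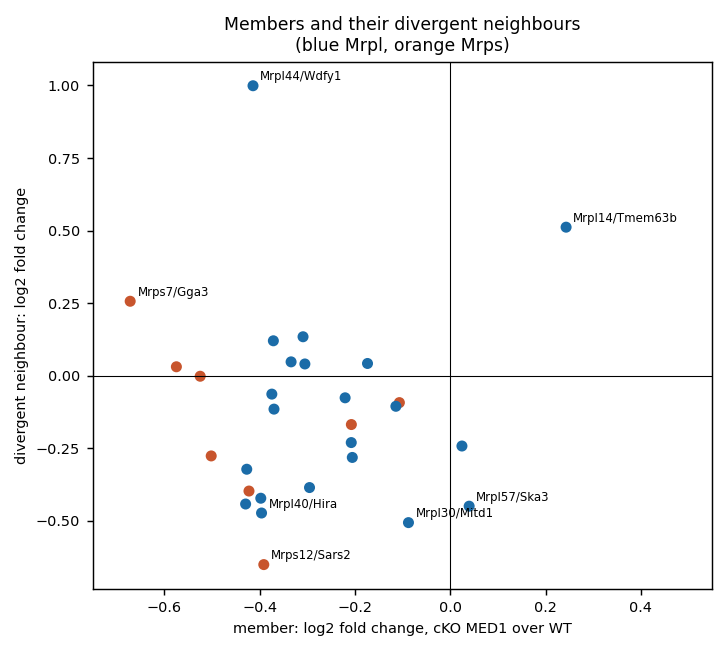
Log2 fold change (cKO MED1 over WT) of members (horizontal) and of the tested gene that starts within 1000 bases on the opposite strand (vertical), with Mrpl genes in blue and Mrps genes in orange. Points spread over both sides of 0 on the vertical axis, from -0.65 for Sars2 to 1.00 for Wdfy1, whereas most lie left of 0 on the horizontal axis.

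Genes that work with the mitochondrial ribosome fell in part. The shares to set beside these lists are 14.6% lower among all genes tested and 22.8% lower, with a median of -0.11, among genes in the range of levels of the members. Of 6 tested subunits with other names 3 were lower, namely Ict1 (-0.46), a peptidyl-tRNA hydrolase built into the large subunit, Ptcd3 (-0.42) of the small subunit and Gadd45gip1 (-0.34) of the large subunit. Of 15 translation factors and related genes 5 were lower (33.3%) and 0 higher (median -0.20). Lrpprc, which stabilises mitochondrial mRNAs, had 2957, 2584, 2745 and 2524 normalised reads in cKO MED1 replicates 1 to 4, against 4696, 3922 and 3840.4 in WT replicates 1 to 3. Its groups were far apart (log2 fold change -0.62, SE 0.10, adjusted p = 0.00239). The elongation factors Gfm1 (-0.56), Tsfm (-0.49) and Tufm (-0.47) fell as well. Of 30 assembly and rRNA modification genes 10 were lower (33.3%) and 1 higher (median -0.20). Noa1 (-0.71, adjusted p = 0.013), a GTPase of small subunit assembly, Wbscr16 (-0.62, adjusted p = 0.00452) and Fastkd2 (-0.49, adjusted p = 0.00905), which bind the rRNA of the large subunit, and the helicase Dhx30 (-0.32, adjusted p = 0.0175) were among those lower. The gene that rose was Mettl15 (0.37, adjusted p = 0.043), a methyltransferase of the small subunit rRNA, named after its value was seen.

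Of 12 genes of mitochondrial DNA upkeep and transcription 3 were lower and 0 higher (median -0.14), a share of 25% close to the 22.8% of genes in the range of levels of the members. The 3 were the nuclease Mgme1 (-0.57), the helicase Peo1 (-0.33) and the transcription factor Tfam (-0.27). Of 11 nuclear regulators 5 were lower (45.5%) and 1 higher (median -0.23). Myc, which drives growth and ribosome production, had 2630.1, 2359.8, 1874 and 1717 normalised reads in cKO MED1 replicates 1 to 4, against 3787, 3414 and 3223 in WT replicates 1 to 3, and its groups did not overlap (log2 fold change -0.71, SE 0.14, adjusted p = 0.00591). Pprc1 (-0.51), a coactivator of NRF1, and the GABP subunits Gabpb2 (-0.40) and Gabpa (-0.34) were lower, as was Yy1 (-0.25). Nrf1 had a log2 fold change of -0.23 (adjusted p = 0.0692), and the coactivator Ppargc1a was higher at a low level (56.8 ± 12.7 normalised reads in cKO MED1 cells and 33.2 ± 3.74 in WT cells, 0.74, adjusted p = 0.0386). Yy1, Nrf1 and Ppargc1a were named after their values were seen. Over these 5 lists 28 genes were called. The count was 10 without WT replicate 1, 18 and 16 without cKO MED1 replicates 3 and 4, and 0 with sex or a surrogate variable in the fit. Calls over all genes, 5065 in the main fit, were 1556, 3732, 2812, 228 and 241 in the same order.

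None of the messages read by the mitochondrial ribosome, and neither of its rRNAs, was called lower. Of 13 mRNAs of the mitochondrial genome 8 were higher (61.5%, against 13.4% of all genes tested) and 0 lower (median 0.67). Calls among them were 0 without WT replicate 1, 1 without WT replicate 3, 3 without cKO MED1 replicate 3 or 4, and 13 without cKO MED1 replicate 1. With sex in the fit 1 was called and the median was 1.07, with 1 surrogate variable 0 were called and the median was 0.15, and without cKO MED1 replicates 3 and 4 together 0 were called and the median was 0.39. With total reads 4 were called and the median was 0.42. The groups did not overlap in 4 of the 13 mRNAs, against 39.1% of all genes tested. The mean log2 level of the 13, relative to WT, was 0.15, 0.58, 1.09 and 0.94 in cKO MED1 replicates 1 to 4. In WT replicates 1 to 3 it was -0.19, 0.30 and -0.11, so the groups overlap. mt-Rnr1, the rRNA of the small subunit, had a log2 fold change of 0.85 (SE 0.38, adjusted p = 0.11), and mt-Rnr2, that of the large subunit, 0.76 (SE 1.08, adjusted p = 0.611). The groups of mt-Rnr1 did not overlap (183% of WT), whereas those of mt-Rnr2 did (175% of WT). Whether the depletion step also removes these rRNAs is not stated in the sources used here. Of 84 tested cytosolic ribosomal protein genes 3 were lower and 1 higher, and their median of 0.03 was close to the 0.04 of all genes tested (-0.21 beside -0.20 with total reads). Without cKO MED1 replicate 1, 16 of them were higher, where 3012 of all 17818 genes tested were higher too. The mean log2 level of the cytosolic genes, with the WT average set to 0, was -0.28, 0.26, 0.17 and 0.02 in cKO MED1 replicates 1 to 4, against -0.05, 0.13 and -0.08 in WT replicates 1 to 3, so the groups overlap.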

How the data were processed

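The deposited table holds a signal: the authors had divided the read counts of each library by a size factor. Each value was a whole multiple of the lowest one in its library (100%, tolerance 1e-06), which gave back the reads. The phiX row (0.000383% of reads or less) was left out. The submitters' processing notes name GRCm38 (mm10), Subread 1.5.0-p3 with featureCounts, STAR 2.4.0a and DESeq2, without their roles. Per the labels' protocols, libraries were stranded, amplified for 14 cycles and read as 150 bp pairs.

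Reads were scaled with TMM (edgeR 4.0.16) to 48019763 reads. The 18062 genes kept by filterByExpr were tested with limma 3.58.1 (R 4.3.3) on log2(normalised reads + 1) with an intensity trend, two-sided, and p-values were adjusted over all of them by Benjamini-Hochberg (threshold 0.05). A log2 fold change is the cKO MED1 mean minus the WT mean on that scale, and is too small for genes of low level. edgeR's quasi-likelihood test and DESeq2 1.42.0 on recovered reads were alternatives, as were RLE factors, total reads, the authors' factors, no filter, CPM 1 in 3 libraries, a pseudocount of 5, limma-voom, a threshold of 0.01, the replicate number, sex or 1 surrogate variable (sva 3.50.0) in the fit, and libraries left out. The test was tried on simulated reads first. Positions, exons and coding lengths are from GENCODE M21.

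Members and lists were chosen with earlier results of these data known. Members named singly are, for each subunit by name, the 10 with the smallest adjusted p among those called, the 5 largest falls and rises, the 5 highest per kb of exon and those whose place differs from the name. Each pathway list gives up to 4 called genes with the smallest adjusted p, and genes named beyond that rule are marked in the text.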

Additional observations from a re-analysis of the deposited data

Results flagged for a closer look

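In 99 groups of 4 cKO MED1 values examined, 3 had 1 library far from the other 3, and chance flags about 1 in 20 such groups. Mrpl32 had 949.9 normalised reads in cKO MED1 replicate 1, below 1177, 1148 and 1173 in replicates 2 to 4, against 1113, 1194 and 972 in WT replicates 1 to 3. Wbscr16, an assembly factor, had 450.3 normalised reads in cKO MED1 replicate 2, above 390.3, 395 and 399 in replicates 1, 3 and 4, against 730, 598 and 564 in WT replicates 1 to 3. The summed reads of the Mrpl genes were 1.77 times those of the Mrps genes in cKO MED1 replicate 1, below 1.88, 1.89 and 1.88 times in replicates 2 to 4, against 1.77, 1.83 and 1.79 times in WT replicates 1 to 3.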

How the results depend on the processing

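The median log2 fold change of the members minus that of all genes was -0.34 with TMM, RLE factors, total reads and the authors' factors, and total reads moved the median of all genes to -0.20. It was -0.81 without a filter, where the median of all 43065 genes was 0.35, -0.21 with CPM 1 in 3 libraries, -0.19 with sex in the fit, -0.22 with 1 surrogate variable, -0.29 with the replicate number as a block, and -0.26 to -0.46 with each library left out in turn (without cKO MED1 replicate 4 and without WT replicate 3). The 19 large subunit genes called lower became 36 with total reads, 29 with the authors' factors, 31 without a filter, 8 with CPM 1 in 3 libraries, 3 at a threshold of 0.01, 10 without cKO MED1 replicates 3 and 4, and 4 to 26 with each library left out in turn. Over all genes, 14.6% were lower in the main fit. That share became 24.2%, 19.8%, 8.80%, 12.9%, 4.40% and 7.34% in the same order, and 5.25% to 17.5% with each library left out in turn. The 12 small subunit genes became 20 with total reads, 3 at 0.01 and 4 to 13 with each library left out. Members called higher numbered 0 to 1 with each library left out. The 28 genes called on the other lists became 8 at 0.01, 13 without cKO MED1 replicates 3 and 4, and 10 to 29 with each library left out. With sex in the fit, and with 1 surrogate variable, all 3 counts of calls became 0. The calls of Mrps7, Mrpl38, Mrpl16, Mrps5, Mrpl35 and Mrps18b held in 19 of 21 alternatives, all but those 2.

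Same-numbered cKO MED1 and WT libraries had correlated deviations of 0.51, -0.23 and 0.16, so the numbers were not taken as pairs (cKO MED1 replicate 2 correlated best with WT replicate 1, at 0.40). With the replicate number as a block, 7 large subunit genes, 8 small subunit genes and 18 genes of the other lists were called, and the log2 fold change of Mrpl32 was -0.0031. In that fit 10.1% of all genes tested were lower.

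Members near 0 changed sign, and the cause was not tested. With total reads the log2 fold change was -0.053 for Mrpl52, -0.082 for Mrpl33, -0.20 for Mrpl57, -0.22 for Mrpl32, -0.20 for Mrps21 and -0.22 for Mrps33. With the authors' factors it was -0.093 for Mrpl57, -0.11 for Mrpl32, -0.095 for Mrps21 and -0.12 for Mrps33, and without a filter -0.12, -0.13, -0.12 and -0.14 for the same genes. With 1 surrogate variable it was -0.036 for Mrpl33, -0.24 for Mrpl57, -0.079 for Mrpl32, -0.095 for Mrps33 and 0.022 for Mrps15. Without cKO MED1 replicates 3 and 4 it was -0.20 for Mrpl57, -0.036 for Mrpl32 and -0.069 for Mrps33. With each library left out it ranged between -0.11 and 0.21 for Mrpl57, -0.11 and 0.084 for Mrpl32, -0.040 and 0.062 for Mrps21, and -0.11 and 0.12 for Mrps33.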
